A study of Homo sapiens with 10 samples.

Results

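The levels of 43 genes of mitosis and the spindle, from the cyclin B kinase that starts mitosis to the proteins that part the daughter cells, were followed in SNU398 cells in which SALL4 was lowered with a hairpin. The members are a given list of gene symbols. All 43 were found among the 56303 rows of the deposited count files and all 43 passed the filter on low counts, so that each is among the 25807 genes tested. SALL4, a DNA-binding protein with zinc fingers, is active in the embryo and the fetal liver and is expressed again in some liver cancers. SNU398 is an established human hepatocellular carcinoma line, used here as the only line and with 1 hairpin against SALL4. In both RNA groups cells grown in RPMI medium with serum were transduced with a short hairpin RNA and RNA was taken 72 hours later. The knockdown group received the SALL4 hairpin that the labels call shRNA-2 (2 libraries) and the control group a scrambled hairpin (2 libraries). SALL4 binding was mapped by CUT&RUN in SNU398 nuclei (3 libraries), where a nuclease tethered through an antibody releases the DNA at the bound protein; the 3 libraries made with rabbit IgG were not analysed here. Separate cultures are not stated for the libraries of a group, and p-values here reflect only the spread among these libraries, which may be technical.

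Most of these genes are transcribed in a wave in late G2 and mitosis. In quiescent and G1 cells the DREAM complex keeps them off, and later the MuvB core of the same complex works with MYBL2 and FOXM1 to turn them on. The MuvB subunit LIN54 touches DNA at a short element near the start of these genes, the cell cycle genes homology region, which is often found beside CCAAT boxes bound by NF-Y. Their summed level in a bulk sample therefore follows how many cells are in G2 and mitosis as well as how much of each RNA a cell holds, and these readings cannot be told apart in bulk RNA.

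Total counts ranged from 158934493 to 225624957 per RNA library. The target itself fell: SALL4 was at 74.5 and 58.7 CPM (counts relative to the library total, scaled by the TMM method) in scramble replicates 1 and 2 and at 21.6 and 18.7 CPM in knockdown replicates 1 and 2, or -1.72 as log2 fold change with an SE of 0.19 (adjusted p = 5.84e-06 in edgeR's quasi-likelihood test). Of 14 hepatocyte and hepatoma markers 13 stayed under 1 CPM in every library, among them ALB, AFP and HNF4A, and the exception was GPC3 at 13.7 CPM or more. Fibroblast markers summed to 970.2 to 1052 CPM in the scramble libraries and 967.5 to 1043 CPM in the knockdown libraries, mostly from COL3A1 and LUM, with PDGFRA and PDGFRB under 1 CPM throughout. All 5 endothelial and all 5 leukocyte markers were under 1 CPM in every library, with the T cell marker CD3E at 0. Among the fibroblast markers COL1A1 (log2 fold change -0.94, adjusted p = 0.0292) and THY1 (-0.77, adjusted p = 0.0356) fell after knockdown by the same edgeR test. The other 6 were not called, with negative values for PDGFRB (-1.16), LUM (-0.74) and DCN (-0.49) and positive values for PDGFRA (0.54), COL1A2 (0.34) and COL3A1 (0.15). The part of these markers in the results was not tested. The 3 SALL4 CUT&RUN libraries hold 74708, 398354 and 296159 peaks, in lists that the authors label relaxed. The authors' common list holds 11201 merged regions, of which 1158 contain bases where the peaks of all 3 libraries overlap.

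The main comparison asked whether lowering SALL4 changed the mitosis genes. Of the 43 genes 1 passed the test: SPC24, an outer kinetochore subunit, fell (edgeR, adjusted p under 0.05), and no member rose. Over all 25807 genes tested 5.55% were called, 3.25% lower and 2.31% higher, and 8.18% of the genes at a mean of at least 10 CPM. An unadjusted p under 0.05 was found for 8 members, against 18.1% of all genes and 23.7% of those at 10 CPM or more. The libraries of the 2 groups did not overlap for 20 members, of which 12 were lower and 8 higher after knockdown, against 47.1% of all genes (22.9% lower and 24.2% higher) and 51.3% of those at 10 CPM or more. All of these shares lie near or below the background. Log2 fold changes of the members ran from -0.64 to 0.42 with a median of -0.12, beside a median of 0.0015 over all genes tested, with 28 members negative and 15 positive. The median turned to 0.04 when scramble replicate 1 was left out and to -0.25 without scramble replicate 2. The sign of the fold change held for 24 of 43 members whichever library was left out.

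The intervals of the main fit give its precision. They come from 2 libraries per group, with no replicate term, and from a spread estimated largely across genes. With a replicate block 7 members (SPC24, SPC25, ECT2, PRC1, AURKA, AURKB and UBE2C, all lower) and 19.1% of all genes were called. The intervals of the main fit therefore do not bound what could have been missed. In what follows, called or not called refers to the main fit unless another is named. The SE of a member's log2 fold change had a median of 0.18, and the 95% interval stayed within a 2-fold change in either direction for 41 of 43 members. The exceptions were SPC24, with an interval of -1.01 to -0.27 on the log2 scale, and its partner SPC25, with -1.01 to -0.034. For 22 members the interval also excluded a change of 1.5-fold or more. The difference between groups was larger than the difference between libraries within either group for 14 of 43 members, against 56.1% of all genes tested and 40.1% of those at 10 CPM or more.

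**Figure D1:**
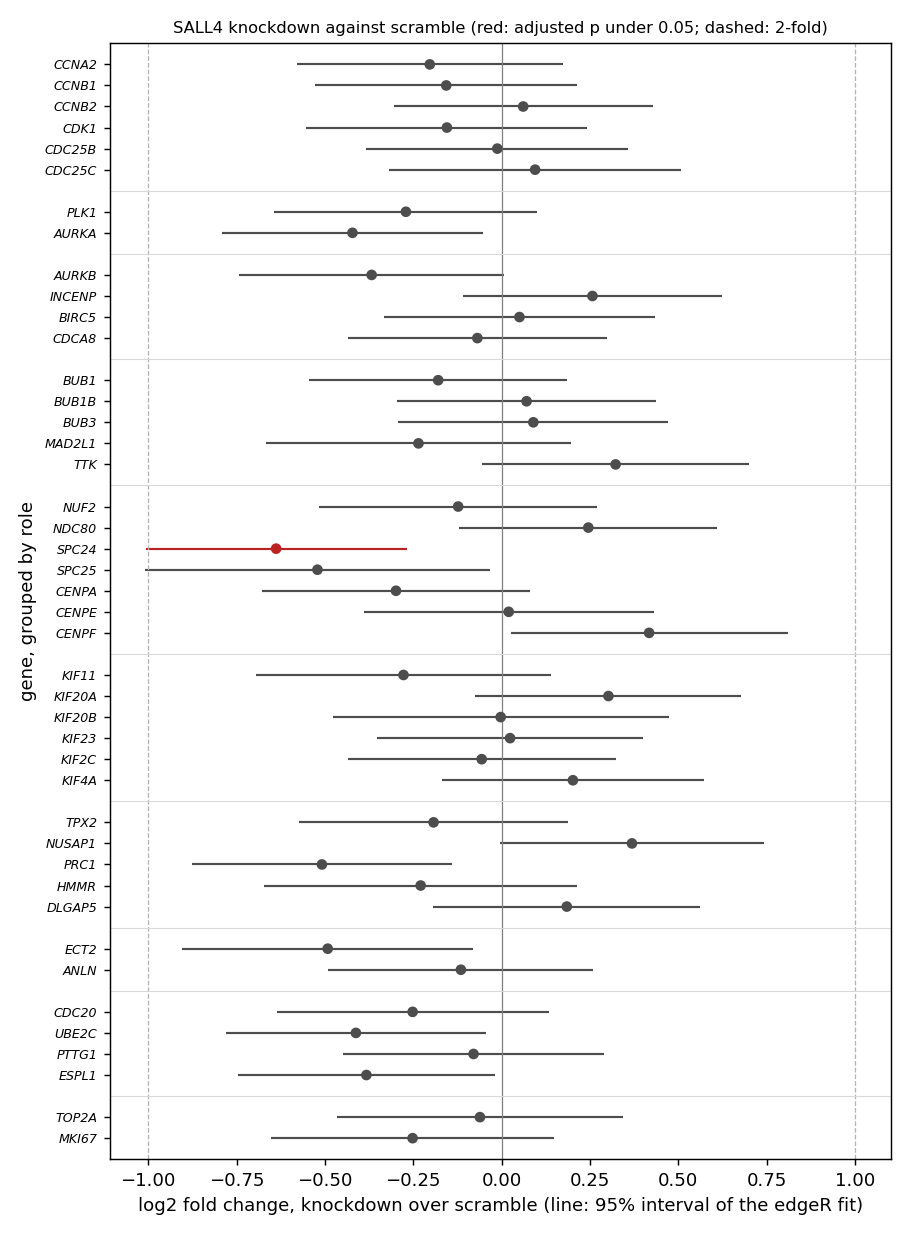
Log2 fold change of each of the 43 members, knockdown over scramble (points, edgeR fit of 2 against 2 libraries), with its 95% interval (lines) and genes grouped by role from mitotic entry at the top to chromosome structure at the bottom. SPC24 at -0.64 is the 1 member past the threshold, drawn in red, and only the intervals of SPC24 and SPC25 reach the dashed line of a 2-fold change.

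The called gene belongs to the kinetochore, the protein assembly that ties each chromosome to spindle microtubules. Its microtubule-binding rod, the Ndc80 complex, has 4 subunits: NDC80 and NUF2 reach the microtubule, while SPC24 and SPC25 form the other end and hold on to the inner kinetochore. SPC24 (chr19:11145493-11155782, minus strand, GRCh38.p14) had 73.6 and 71.7 CPM in the scramble libraries and 49.2 and 44.2 CPM in the knockdown libraries. Both knockdown libraries were below both scramble libraries, and the groups lay much farther apart than the libraries within them. The group mean was 72.6 ± 1.33 CPM for scramble and 46.7 ± 3.56 CPM for knockdown (SD, n = 2 libraries each), which is -0.64 on the log2 scale (fitted, with an SE of 0.18 and an edgeR adjusted p = 0.0345). This call was lost when any 1 library was left out (edgeR adjusted p from 0.0860 to 0.203, log2 fold change from -0.72 to -0.57) and with a filter of 5 CPM (adjusted p = 0.0542).

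SPC25 (chr2:168861521-168890430) had 31.6 CPM in scramble replicate 1 but 19.1 CPM in scramble replicate 2, and 19.8 and 15.5 CPM in the knockdown libraries. Scramble replicate 2 lay between the knockdown libraries, so the groups overlapped, and the log2 fold change of -0.52 (SE 0.23) did not pass the test (edgeR adjusted p = 0.236). Without scramble replicate 2 it passed (log2 fold change -0.83, adjusted p = 0.0366), and without scramble replicate 1 the value was -0.12 (adjusted p = 0.918). NUF2 (chr1:163321954-163355759) had 42.2 and 32.8 CPM against 36.6 and 32.2 CPM, overlapping groups with a log2 fold change of -0.12 (SE 0.19). NDC80 (chr18:2571557-2616635) pointed the other way, at 73.3 and 64.8 CPM against 83.0 and 80.6 CPM, with 0.25 ± 0.18 (SE) as log2 fold change (adjusted p = 0.522). The subunits of this 1 complex thus had fold changes of both signs, and the difference between subunits was not tested.

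The promoter windows of these 4 subunits are shown because the complex holds the called gene and the sign of the values differs within it. Each window runs from 250 bases before to 50 bases after the RefSeq start (GRCh38.p14), in the direction of the gene. Capitals mark TTTGAA, the core of the cell cycle genes homology region, and CCAAT, on either strand, so that TTCAAA and ATTGG are the same words read on the other strand. The windows lie at chr19:11155733-11156032 (minus strand) for SPC24, chr2:168890381-168890680 (minus strand) for SPC25, chr1:163321704-163322003 (plus strand) for NUF2 and chr18:2571307-2571606 (plus strand) for NDC80.
SPC24: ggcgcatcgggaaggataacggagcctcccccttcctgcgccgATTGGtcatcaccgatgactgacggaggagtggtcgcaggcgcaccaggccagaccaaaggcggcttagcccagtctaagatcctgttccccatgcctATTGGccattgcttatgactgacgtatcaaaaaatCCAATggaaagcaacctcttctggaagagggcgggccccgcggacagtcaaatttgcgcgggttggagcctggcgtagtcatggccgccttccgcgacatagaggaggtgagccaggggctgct
SPC25: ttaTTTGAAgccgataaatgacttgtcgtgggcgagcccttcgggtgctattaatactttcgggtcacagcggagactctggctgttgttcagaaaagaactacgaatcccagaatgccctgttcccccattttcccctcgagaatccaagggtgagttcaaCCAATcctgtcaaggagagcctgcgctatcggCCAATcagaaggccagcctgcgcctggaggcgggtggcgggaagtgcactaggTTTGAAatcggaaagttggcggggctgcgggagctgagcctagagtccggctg
NUF2: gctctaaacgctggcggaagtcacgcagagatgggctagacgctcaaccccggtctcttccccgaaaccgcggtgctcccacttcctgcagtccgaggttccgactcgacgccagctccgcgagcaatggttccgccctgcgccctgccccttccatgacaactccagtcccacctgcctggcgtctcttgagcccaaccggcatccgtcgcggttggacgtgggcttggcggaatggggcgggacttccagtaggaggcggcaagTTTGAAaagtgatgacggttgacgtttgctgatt
NDC80: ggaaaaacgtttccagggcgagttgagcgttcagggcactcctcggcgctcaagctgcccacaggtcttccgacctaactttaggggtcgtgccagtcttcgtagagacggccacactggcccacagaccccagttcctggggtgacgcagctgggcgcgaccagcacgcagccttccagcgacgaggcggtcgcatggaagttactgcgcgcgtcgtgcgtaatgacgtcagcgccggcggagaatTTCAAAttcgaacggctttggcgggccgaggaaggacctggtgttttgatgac
The SPC24 window holds 3 CCAAT words and no TTTGAA. In SPC25 there are 2 TTTGAA words, 1 of them across the start, and 2 CCAAT words. NUF2 and NDC80 hold 1 TTTGAA each and no CCAAT. A match is a description of the letters only.

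The list also holds 3 kinetochore genes outside the rod. CENPF, a large coiled-coil protein that loads on kinetochores in G2, had 229 and 189 CPM in the scramble libraries and 246 and 313 CPM after knockdown. Its groups did not overlap, and its log2 fold change of 0.42 (SE 0.19) missed the threshold (edgeR adjusted p = 0.236). Without knockdown replicate 2 the value was 0.22, and without knockdown replicate 1 it was 0.58. CENPA, the histone H3 variant that marks the centromere, had 37.5 and 36.0 CPM against 29.1 and 30.7 CPM and a log2 fold change of -0.30. For the kinetochore motor CENPE it was 0.020. In all, the 7 kinetochore and centromere genes had 4 negative and 3 positive values with a median of -0.12. An unadjusted edgeR p under 0.05 was found for 3 of them, SPC24 and SPC25 (lower) and CENPF (higher). The share was 18.1% of all genes and 23.7% of those at 10 CPM or more.

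Mitosis starts when cyclin B binds CDK1 and CDC25 phosphatases remove the inhibitory phosphates from the kinase. None of the 6 genes of this group was called by edgeR or DESeq2, and none had an unadjusted p under 0.05. CDK1 was at 323 and 243 CPM in the scramble libraries and at 279 and 230.3 CPM in the knockdown libraries, so that replicate 2 was the lower library in both groups (log2 fold change -0.15, 95% interval -0.55 to 0.24). CCNA2, the S and G2 phase cyclin A2, had 168 and 134 CPM against 136 and 126 CPM, with -0.20 as the largest change of this group (95% interval -0.58 to 0.17). CCNB1, CCNB2, CDC25B and CDC25C had log2 fold changes of -0.16, 0.061, -0.012 and 0.095.

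Neither the aurora A kinase nor the polo kinase was called, and both had negative values. AURKA, which builds the spindle poles, had 192 and 186 CPM in the scramble libraries and 131 and 151 CPM after knockdown. The groups were apart by more than the libraries within them, and the log2 fold change of -0.42 (SE 0.18) had an unadjusted p of 0.0265 and an adjusted p of 0.195. PLK1, the polo kinase, had 114 and 105 CPM against 81.8 and 99.8 CPM, with knockdown replicate 2 close to scramble replicate 2 (log2 fold change -0.27, adjusted p = 0.475).

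AURKB is the kinase of the chromosomal passenger complex, which corrects wrong attachments and moves to the midzone at anaphase, together with INCENP, BIRC5 (survivin) and CDCA8 (borealin). AURKB had 89.1 and 89.3 CPM in the scramble libraries and 60.6 and 77.6 CPM in the knockdown libraries, with -0.37 ± 0.18 (SE) as log2 fold change (edgeR adjusted p = 0.288). Its scaffold INCENP had 113 and 98.7 CPM against 122 and 131 CPM, groups that did not overlap in the other direction (0.26, not called). BIRC5 was at 465 and 447 CPM against 440.1 and 504 CPM, with knockdown libraries on both sides of the scramble libraries. CDCA8 had a log2 fold change of -0.069. None of these 4 was called.

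The spindle checkpoint delays anaphase until every kinetochore is attached. Its kinase TTK (MPS1) had 124 and 105 CPM in the scramble libraries and 157 and 129 CPM in the knockdown libraries, which did not overlap, with 0.32 ± 0.18 (SE) as log2 fold change (adjusted p = 0.377). BUB3, which brings the BUB kinases to kinetochores, had 437 and 397 CPM against 461 and 426 CPM, and BUB1, BUB1B and MAD2L1 had log2 fold changes of -0.18, 0.071 and -0.24. The adjusted p of these 5 genes was 0.377 or more.

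Downstream of the checkpoint, CDC20 activates the APC/C ubiquitin ligase, UBE2C feeds it with ubiquitin, and securin (PTTG1) is destroyed so that separase (ESPL1) can cut cohesin. All 4 had negative values. UBE2C had 184 and 167 CPM against 125 and 139 CPM, with -0.41 ± 0.18 (SE) as log2 fold change (edgeR adjusted p = 0.208). ESPL1 had 141 and 130.1 CPM against 102 and 106 CPM and -0.38 ± 0.18 (SE) as log2 fold change (adjusted p = 0.245). Both genes had groups farther apart than their libraries, which were close to each other within each group. CDC20 was at 280.1 and 263 CPM in the scramble libraries and at 199.8 and 256 CPM in the knockdown libraries, with knockdown replicate 1 well below the other 3. PTTG1 was at 79.9 and 81.3 CPM against 69.4 and 83.1 CPM, with the scramble values inside the range of the knockdown values.

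The 6 spindle kinesins had log2 fold changes of both signs with a median of 0.011. KIF20A, a motor of the midzone and cytokinesis, had 118 and 108 CPM against 123 and 155 CPM, the highest value of this group at 0.30 (adjusted p = 0.415). KIF11, which pushes the poles apart, was at 288 and 195 CPM against 218 and 180.1 CPM. Scramble replicate 1 stood above the other libraries for KIF11, and the log2 fold change was -0.28 (adjusted p = 0.525). It was 0.027 without that library and -0.52 without scramble replicate 2. KIF20B had 164 and 104 CPM against 155 and 113 CPM. In KIF20B replicate 2 was far below replicate 1 in both groups while the group means were 134.0 and 133.8 CPM. KIF23, KIF2C and KIF4A had 0.024, -0.056 and 0.20.

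Factors that nucleate and bundle spindle microtubules had values of both signs, and none was called. PRC1, which crosslinks the antiparallel microtubules of the midzone, had 235 and 227 CPM in the scramble libraries and 155 and 170.1 CPM in the knockdown libraries. Its groups were well separated, by -0.51 ± 0.18 (SE) on the log2 scale (unadjusted p = 0.00885, edgeR adjusted p = 0.101). The count of PRC1 is uncertain, since the authors' combined matrix lists it at 1792 and 1359 counts in scramble replicates 1 and 2, 0.0388 and 0.0377 times the count of the library files. The median member had a ratio of 0.812 and 0.762 in these libraries, and what sets PRC1 apart was not tested. NUSAP1, which binds microtubules near chromosomes, had 150.0 and 123 CPM against 178 and 174 CPM, with both knockdown libraries above both scramble libraries (0.37, SE 0.18, adjusted p = 0.282). TPX2, the activator of aurora A, had 314 and 269.6 CPM against 239 and 272 CPM. HMMR and DLGAP5 had log2 fold changes of -0.23 and 0.18.

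At cytokinesis ECT2 activates RHOA and anillin (ANLN) organises the contractile ring. ECT2 had 133 and 92.2 CPM in the scramble libraries and 89.1 and 71.1 CPM after knockdown. The groups did not overlap, but scramble replicate 2 lay nearer to knockdown replicate 1 than to scramble replicate 1, and the log2 fold change of -0.49 (SE 0.20) was not called (edgeR adjusted p = 0.170). It was -0.21 without scramble replicate 1 and -0.72 without scramble replicate 2 (adjusted p = 0.0572). ANLN had 193 and 155 CPM against 163 and 158 CPM. The chromosome proteins TOP2A, which untangles sister DNA, and MKI67, which coats mitotic chromosomes, completed the list. TOP2A was at 655 and 488 CPM against 564 and 532 CPM, and MKI67 at 271 and 187 CPM against 190.3 and 194 CPM. Scramble replicate 1 was the highest library for both genes, and for MKI67 the other 3 libraries were close together.

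**Figure D2:**
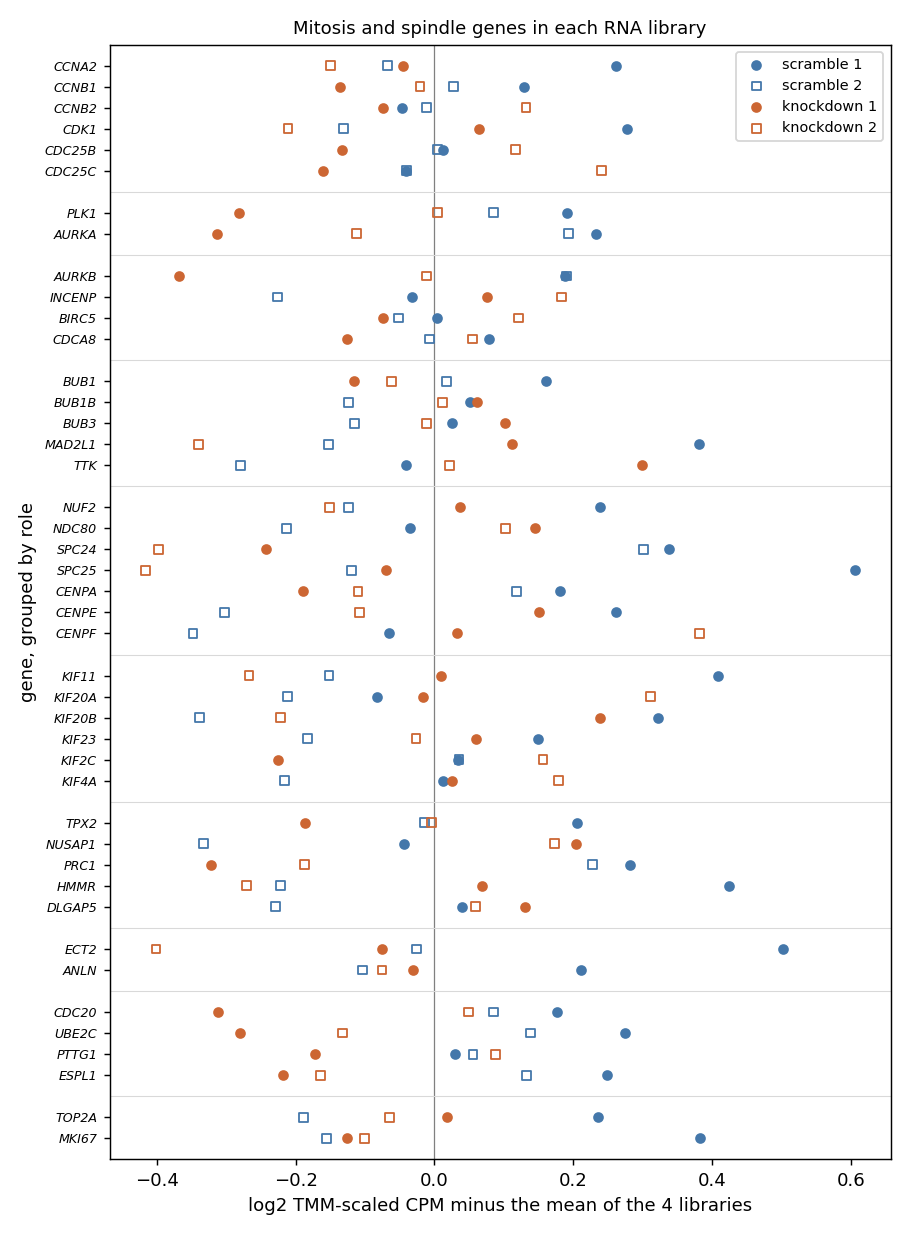
Level of each member in the 4 RNA libraries, as log2 TMM-scaled CPM minus the mean of that gene over the libraries (filled symbols replicate 1, open symbols replicate 2; blue scramble, orange knockdown). Scramble replicate 1 is the highest library for 26 of 43 genes and the lowest for 0. Both orange symbols lie left of both blue ones for 12 genes, SPC24 and PRC1 among them, and right of them for 8. The groups did not overlap for 47.1% of all genes tested.

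Of the 4 libraries scramble replicate 1 stood highest in these genes. The summed level of the 43 genes was 7647 CPM in scramble replicate 1, 6471 CPM in scramble replicate 2, and 6668 and 6787 CPM in knockdown replicates 1 and 2. Both knockdown sums lay between the scramble sums. Scramble replicate 1 was the highest of the 4 libraries for 60.5% of members, against 22.9% of all genes tested and 29.7% of genes at a mean of at least 10 CPM. In no member was it the lowest.

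Within the scramble group 38 of 43 members were lower in replicate 2 than in replicate 1, against 49.3% of all genes and 57.8% of genes at 10 CPM or more. The median difference of the members was -0.18 on the log2 scale, beside 0.0037 for all genes and -0.054 for genes at 10 CPM or more. Within the knockdown group 20 members were lower in replicate 2, against 48.3% and 33.7%. The median difference of the members there was 0.054, beside 0.011 for all genes and 0.12 for genes at 10 CPM or more. The same 20 members were lower in replicate 2 in both groups, against 29.9% of all genes and 29.7% of those at 10 CPM or more. SPC25, KIF20B and HMMR had the lowest differences between scramble libraries, at -0.71, -0.66 and -0.64, beside -0.34, -0.46 and -0.34 between knockdown libraries. CDC25C and KIF2C differed by 0.39 and 0.38 between knockdown libraries and were level between scramble libraries. These are descriptions with 1 library on each side, and what the replicate number stands for is not given in the sources used here.

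**Figure D3:**
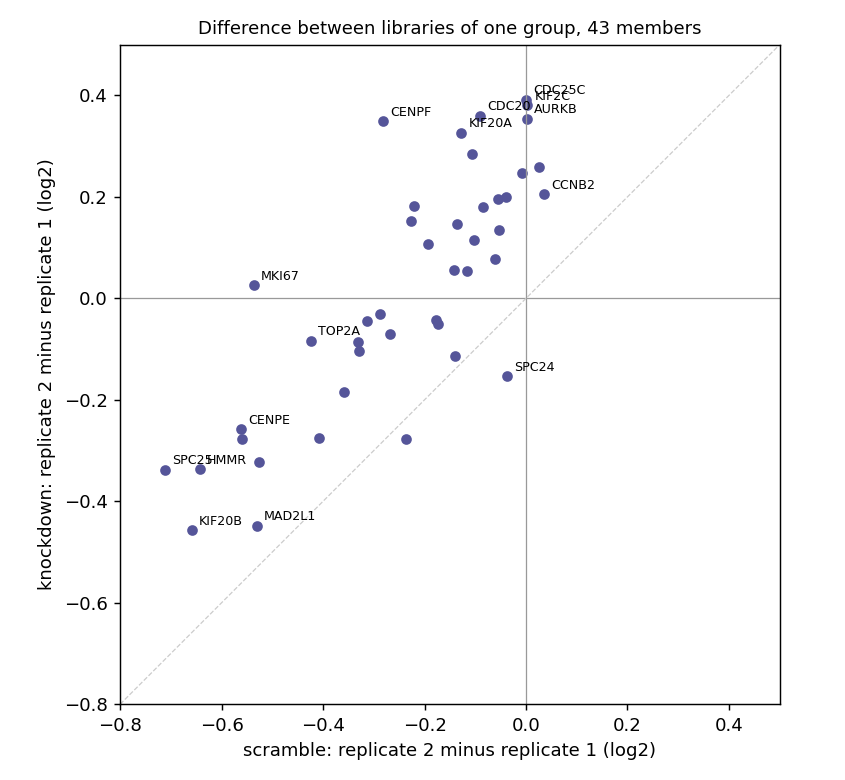
Difference between the libraries of one group for each of the 43 members, replicate 2 minus replicate 1 in log2 CPM, scramble on the horizontal and knockdown on the vertical axis. Points left of the vertical line (38 of 43) were lower in scramble replicate 2, and 20 of them were also below the horizontal line. SPC24 lies at -0.037 and -0.15, one of the smaller scramble differences.

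The authors' deposited table lists all 43 members and calls more of them, 12 lower and 6 higher at an adjusted p under 0.05, where 19.8% and 17.2% of its 15141 genes were called lower and higher (37.0% in all). For each of these 15141 genes its log2 fold change was matched within 1e-06 when limma-voom was run on the authors' combined matrix with the replicate number as a second term. The members the authors' deposited table calls lower are SPC24 (-0.59, adjusted p = 2.89e-04), SPC25 (-0.47), ECT2 (-0.45), PRC1 (-0.44), AURKA (-0.37), ESPL1 (-0.37), AURKB (-0.36), UBE2C (-0.31), CENPA (-0.27), PLK1 (-0.25), KIF11 (-0.24) and CDC20 (-0.21). Those it calls higher are CENPF (0.39), NUSAP1 (0.35), TTK (0.29), KIF20A (0.26), INCENP (0.25) and NDC80 (0.22). The authors' deposited table and the fits here share their libraries, so that these calls are not a second measurement.

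The other genes of the pathway were read from the same fit with a list of 128 further mitosis genes, of which 127 were tested and SEPTIN9 was not matched. In this list 2 genes rose and 2 fell, beside a background of 5.55% over all genes. The largest log2 fold change of the list, 1.40 (SE 0.37) for the kinetochore gene SKA2, was not called (edgeR adjusted p = 0.103). SKA2 had 42.8 and 21.2 CPM in the scramble libraries and 100.4 and 68.4 CPM in the knockdown libraries. Its groups did not overlap, and replicate 2 minus replicate 1 was -0.99 in scramble and -0.55 in knockdown on the log2 scale. The authors' deposited table, from the same libraries, gives SKA2 1.36 (adjusted p = 1.26e-06). That table calls 28 of the 125 genes it shares with this list higher and 25 lower, against 17.2% and 19.8% of all its genes. LIN54, the DNA-binding subunit of MuvB, fell from 63.6 and 47.6 CPM to 31.6 and 27.1 CPM, with -0.92 ± 0.19 (SE) as log2 fold change (edgeR adjusted p = 0.00479). LIN54 was no longer called without scramble replicate 1 (log2 fold change -0.70, adjusted p = 0.101). RHOA, the GTPase of the contractile ring and of many other actin structures, fell from 319 and 288 CPM to 163 and 172 CPM, with -0.86 ± 0.18 (SE) as log2 fold change (adjusted p = 0.00504).

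CENPH, of the inner kinetochore, rose from 26.3 and 22.7 CPM to 44.3 and 37.5 CPM (log2 fold change 0.74, SE 0.19, edgeR adjusted p = 0.0198), and lost its call without scramble replicate 2 (adjusted p = 0.177), without knockdown replicate 1 (0.182) and with the 5 CPM filter (0.0501). STAG1, a cohesin subunit, rose from 60.6 and 46.5 CPM to 82.2 and 83.1 CPM (log2 fold change 0.63, adjusted p = 0.0447). The STAG1 call was lost without scramble replicate 2 (adjusted p = 0.409), without knockdown replicate 1 (0.126) or 2 (0.142), with the 5 CPM filter (0.0583), with the combined matrix (0.0729) and with limma-voom (0.0624). The activators were not called: FOXM1 had 109 and 95.4 CPM against 78.8 and 83.7 CPM (-0.33, adjusted p = 0.348), and MYBL2 had 223 and 195 CPM against 189 and 221 CPM (-0.027). The median of the 127 genes was 0.052, with 73 positive and 54 negative values. By subset the medians ran from -0.24 for 6 further cytokinesis genes to 0.13 for 30 further kinetochore and checkpoint genes.

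The promoters of the members were searched for the cell cycle words. RefSeq promoter windows were matched for 37 of 43 members, and AURKA, BIRC5, BUB3, TTK, TPX2 and UBE2C had no entry. TTTGAA, on either strand, was present in 26 of 37 member windows (70.3%), against 15.4% of 27305 promoter windows in the table and 10.5% of the windows of genes tested. CCAAT was present in 29 of 37 (78.4%), against 35.7% and 36.2%, and at least 2 CCAAT words in 19 of 37 (51.4%), against 11.3% and 13.1%. Both TTTGAA and CCAAT were found in 22 of 37 (59.5%), against 6.08% of all windows. The single TTTGAA of PLK1 and CCNB2 began at position -29 from the start, that of PRC1 at -20 and that of CDCA8 and BUB1B at -23. In other members it lay elsewhere, at -161 in CDK1, -55 in KIF23 and 40 in CENPF. Within the 250 bases before the start TTTGAA was present in 20 of 37 members (54.1%), against 13.6% of all windows. The 26 members with TTTGAA had a median log2 fold change of -0.12 and the 11 without it of -0.079, with 17 and 8 negative values.

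The CUT&RUN comparison asked whether SALL4 regions lay near the ends of these genes. A common region lay within 3 kb of either gene end, measured from the nearest edge of the region, for 10 of 43 members (23.3%), against 9.5% of 19202 tested genes with a RefSeq span and 12.2% of those at 10 CPM or more. Within 1 kb the counts were 9 members (20.9%) against 7.02%, and within 10 kb 12 members (27.9%) against 14.2%. Regions overlapped the span of 11 members (25.6%) against 14.4%, where the median span was 28.9 kb for members and 22.1 kb for all. The common regions are wide, merged from peaks that need not overlap each other. Of the regions within 3 kb of a member only the one at BUB3 held bases shared by the peaks of the 3 libraries, and 0.792% of all genes had such a region within 3 kb. A further region with shared bases, chr18:2607309-2609183, lay inside NDC80. Regions of the upper part by signal rank lay within 3 kb of 4 members, against 4.83% of all genes, and 4 of the 37 members with a known start had a region within 3 kb of it, against 7.28%.

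Among the 37 members whose strand was given in the promoter table, a region lay across the annotated start of 3. At NUF2 the region chr1:163319110-163323333 was 4223 bp wide and was made from 1, 3 and 3 peaks of libraries 1, 2 and 3. At NUSAP1 (chr15:41332881-41381046) it was chr15:41330453-41334039, from 1, 1 and 3 peaks, and at ECT2 (chr3:172750726-172829265) chr3:172748845-172751218, from 1, 1 and 3 peaks. In ECT2 a peak of library 1 covered the start itself, while the nearest peaks of libraries 2 and 3 were 740 and 710 bp away. PTTG1 (chr5:160421855-160428744) had the region chr5:160422044-160424013 beginning 189 bp inside the gene.

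Regions also crossed an end of AURKA (chr20:56367422-56370583), BUB3 (chr10:123152503-123154790), TPX2 (chr20:31738417-31740112) and TTK (chr6:80038662-80043201). The strand of these 4 genes was not taken from a table, so the end that was crossed may be the start. TTK held a further common region, chr6:80004894-80007553, close to its other end at 80004649. The BUB3 region ranked above 90.6% of common regions by signal, where each library gives the rank of its strongest peak in the region by the authors' total signal and the 3 ranks are averaged. KIF20B had 4 common regions in its span, 1 of them 309 bp from its far end, and KIF20A had 1 region at 2311 bp from its far end. The nearest members outside the limit were NDC80 at 7197 bp and KIF2C at 7910 bp.

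**Figure D4:**
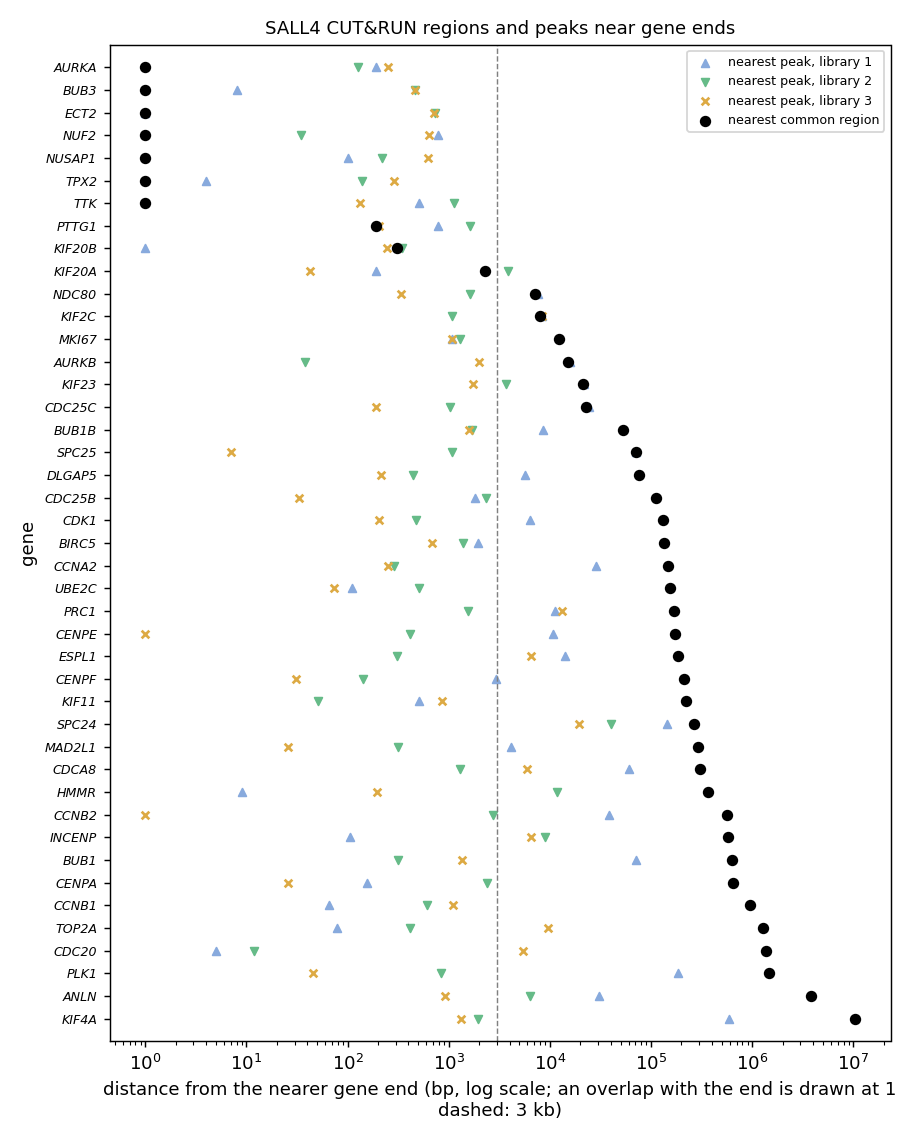
Distance from the nearer end of each of the 43 member genes to the nearest common SALL4 region (black) and to the nearest peak of each CUT&RUN library (coloured), on a log axis where an overlap is drawn at 1 bp and the dashed line marks 3 kb. For 10 genes there is a common region left of the dashed line, and for SPC24 no symbol lies left of it.

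The genes of known strand with a region at or just inside the start are shown with their promoter windows. At ECT2, NUSAP1 and NUF2 the region spans the whole window, while at PTTG1 it begins beyond the end of the window. Capitals mark TTTGAA and CCAAT as before. They also mark the AT-rich word AATATT, which reads the same on both strands. The windows lie at chr3:172750476-172750775 for ECT2, chr15:41332631-41332930 for NUSAP1 and chr5:160421605-160421904 for PTTG1, all on the plus strand, and the window of NUF2 stands with those of the Ndc80 complex.
ECT2: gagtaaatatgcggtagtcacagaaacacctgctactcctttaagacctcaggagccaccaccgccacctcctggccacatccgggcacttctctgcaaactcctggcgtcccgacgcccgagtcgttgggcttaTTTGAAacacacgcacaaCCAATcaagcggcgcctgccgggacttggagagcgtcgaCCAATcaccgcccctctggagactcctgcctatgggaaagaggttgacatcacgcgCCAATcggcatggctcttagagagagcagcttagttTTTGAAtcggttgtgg
NUSAP1: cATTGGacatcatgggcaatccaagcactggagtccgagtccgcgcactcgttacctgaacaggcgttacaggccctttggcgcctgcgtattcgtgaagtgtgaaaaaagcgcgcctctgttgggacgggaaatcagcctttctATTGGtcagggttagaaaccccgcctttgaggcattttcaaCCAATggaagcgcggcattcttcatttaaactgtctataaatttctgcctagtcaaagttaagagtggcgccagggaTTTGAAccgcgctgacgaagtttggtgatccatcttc
PTTG1: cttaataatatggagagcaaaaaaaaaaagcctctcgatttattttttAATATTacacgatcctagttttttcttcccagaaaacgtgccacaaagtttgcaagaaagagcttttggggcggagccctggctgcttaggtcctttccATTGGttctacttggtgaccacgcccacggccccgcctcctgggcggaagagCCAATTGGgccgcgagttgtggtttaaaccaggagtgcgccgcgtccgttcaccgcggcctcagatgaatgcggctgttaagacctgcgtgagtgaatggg
ECT2 holds 2 TTTGAA and 3 CCAAT words, and NUSAP1 holds 1 and 3. PTTG1 holds 3 CCAAT words, of which 2 overlap on opposite strands, no TTTGAA and 1 copy of the AT-rich word. That word was present in 2 of 37 member windows (5.41%), those of PTTG1 and KIF20A, against 7.23% of all windows and 3.30% of those of genes tested. No match says only that these letters are not in the window.

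Members with a nearby region did not have one direction of change. Of the 10 members with a common region within 3 kb 6 had negative and 4 positive log2 fold changes. They ran from -0.49 for ECT2 to 0.37 for NUSAP1, with a median of -0.041. There were 0 calls in the main edgeR fit and by DESeq2, and 2 had an unadjusted edgeR p under 0.05 (AURKA and ECT2). With the replicate block these 2 were called, where 19.1% of all genes were. Of the other 33 members 22 were negative and 11 positive, with a median of -0.15 and the 1 call, SPC24. Among the 43 members SPC24 was the only one with no peak of any of the 3 libraries within 3 kb of an end. Its nearest peaks lay at 143102, 39841 and 19253 bp in libraries 1, 2 and 3, and its nearest common region at 268265 bp. The share of all genes with no peak of any library within 3 kb was not counted, and a link to the SPC24 call was not tested.

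Peaks of a single library were more frequent near these and all other genes. A peak of library 1 lay within 3 kb of an end of 22 members (51.2%) against 33.5% of all genes, a peak of library 2 of 37 (86.0%) against 75.3%, and a peak of library 3 of 35 (81.4%) against 69.6%. All 3 libraries had such a peak for 17 members, 2 of the 3 for 18, 1 for 7 and none for SPC24, and these counts were not made for all genes. MKI67 is an example of 3 nearby peaks with no common region inside the limit: its peaks lay at 1073, 1300 and 1086 bp and the nearest common region at 12429 bp.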

How the data were processed

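RNA of 4 SNU398 libraries and SALL4 CUT&RUN peaks of 3 were used, and the 3 IgG libraries were not analysed here. The members and lists were chosen with earlier results of these data known. The deposited RNA values are raw counts per gene symbol. The submitters' processing notes list, without roles, hg38 and sacCer3 as builds and SEACR 1.1, HOMER 4.10, BWA 0.7.17-r1188, Trimmomatic, ChIPseeker 1.20.0, bedtools, SAMtools 1.5, deepTools 2.5.7, STAR, featureCounts, DESeq2 and Trim Galore 0.4.5 as tools. Since neither strand setting nor annotation release is stated, overlapping and antisense genes cannot be separated. The deposited peak lists, 1 per library, give the authors' total and highest signal per peak, of a scaling that is not stated. The authors' common list of merged regions was used as deposited. The authors' deposited comparison gives log2 fold changes, p-values and further score columns, a moderated statistic and log odds, which were not used.

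Counts were fitted in edgeR 4.0.16 (R 4.3.3; filterByExpr, TMM, robust quasi-likelihood, no term but group) and p-values adjusted over 25807 genes by the Benjamini-Hochberg method, at a threshold of 0.05. The fit was tested on simulated data with fold changes larger than that of any member and with no replicate effect. That test does not bear on changes of the members' size. Alternatives were DESeq2 1.42.0, limma-voom (limma 3.58.1), RLE scaling, no filter, a 5 CPM filter, the combined matrix, each library left out and a replicate block. Replicate differences used log2(CPM + 0.5). Distances ran from the nearest edge of a region to a RefSeq gene end (GRCh38.p14), with coordinates 1-based.

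Levels in every library are given for called members, those with an unadjusted p under 0.05, the most abundant and most changed of each role, and those within 3 kb of a common region. In the wider list the called genes and FOXM1, MYBL2 and LIN54 are given, and SKA2 was added after its value was seen. Other members with library values were added after their values were seen.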

Additional observations from a re-analysis of the deposited data

How the results depend on the processing

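SALL4 stayed lower and called under all 11 alternatives (log2 fold change -1.87 to -1.54 with 1 library left out). The count of called members was 0 with the 5 CPM filter, 0 to 1 with 1 library left out (the 1 being SPC25, without scramble replicate 2) and 1, SPC24, with DESeq2, RLE scaling, no filter, the combined matrix and limma-voom. The members' median log2 fold change ran from -0.25 to 0.04 with 1 library left out, and was 0.042 without scramble replicate 1. In all 11 alternatives 24 of 43 members kept their sign (9 positive, 15 negative), and 19 changed it in at least 1, none of them while called. The wider list had 4 calls in the main fit, where 5.55% of all genes were called. It had 10 with DESeq2, against 7.55% of all genes, and 8 with no filter, against 4.6%. Over all genes the count of calls was 1433, and 810 to 1191 (2.94 to 4.33%) with 1 library left out. With the replicate block 7 members were called, all lower (AURKA, AURKB, SPC24, SPC25, PRC1, ECT2 and UBE2C), 26 genes of the wider list and 4921 of all genes (19.1%). The groups share only the replicate numbers, as 2 pairs; the replicate differences of the groups had r = 0.48 across all genes tested and 0.81 across members, and genes are not independent replicates. Alternatives chosen after seeing the data gave median replicate differences of the members of -0.18 (scramble) and 0.07 (knockdown) with RLE scaling and of -0.12 and -0.04 with the combined matrix. For regions the count of 10 members, against 9.5% of all genes, became 1 with a position covered in all 3 libraries, against 0.792%. It was 4 in the upper part by signal rank, against 4.83%. At the gene start only it was 4 of the 37 members with a known start, against 7.28%. AURKA, BUB3, TPX2 and TTK, which are among the 10, had no known start. For peaks of libraries 1, 2 and 3 the counts were 22, 37 and 35, against 33.5, 75.3 and 69.6% of all genes. With 2 libraries per group, calls rest on a spread estimated largely across genes.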
